A study of Caenorhabditis elegans with 2 samples.

Results

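Genes for aminoacyl-tRNA synthetases and for translation initiation and elongation factors were examined for binding of the zinc finger protein Y22D7AL.16 in Caenorhabditis elegans embryos. Members were the protein-coding genes of the Ensembl WBcel235 annotation whose symbol is 1 letter followed by ars- and a number, or starts with eif-, ife-, iff-, eef- or eft-. There were 70 members of 19985 protein-coding genes, namely 32 synthetase genes and 38 factor genes. The choice used symbols only and no measured value, but it was made with earlier results of these data known. Genes of the same pathway that carry other symbols, such as glp-4 for a valyl-tRNA synthetase, fall outside it.

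All data came from 1 group of 2 biological replicates. The animals were strain OP615, which carries unc-119(tm4063) on chromosome III and the integrated transgene wgIs615, from which Y22D7AL.16 is made with GFP and FLAG fused to its C terminus. Whole late embryos of pooled sexes were taken 4.5 h after egg bleaching, and DNA bound by the fusion protein was collected with anti-GFP. All cell types of the embryo were therefore mixed and every animal carried the transgene. A precipitation from untagged animals was not analysed here.

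An aminoacyl-tRNA synthetase joins 1 amino acid to its tRNAs, and the charged tRNA then carries that amino acid to the ribosome. Many amino acids have separate enzymes for the cytosol and for the mitochondrion, both encoded in the nucleus. Initiation factors bring the ribosome, the initiator tRNA and the mRNA together, and elongation factors deliver charged tRNAs and move the ribosome along. In C. elegans many mRNAs are trans-spliced and many genes lie in operons, so an annotated 5′ end is often not the place where transcription starts.

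The measurements are peaks in the ce11 build, the same sequence as WBcel235. Each peak has a summit and a signal value set by the authors' caller, which can be compared only within a list. The pooled list, called on both replicates together, held 28882 peaks with signals of 27.1 to 601, and each replicate list held 30000. All 3 are relaxed lists that hold background as well as peaks. The thresholded list held the 469 peaks that passed the authors' reproducibility threshold, with signals of 82.9 or more. These were the 469 strongest pooled peaks. A member was counted as having a peak where a summit lay within 1000 bp of its 5′ end, and the strongest such peak was used. The number of reads behind each list was not stated, so depth is unknown. With 1 group there was no test between conditions, and genes are not replicates, so the comparisons below are counts and values set beside those of all protein-coding genes.

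A thresholded peak lay near 2 of the 70 members, the mitochondrial glutamyl-tRNA synthetase gene ears-2 and the initiation factor gene eif-3.C. That is 2.86% (exact 95% Clopper-Pearson interval 0.348 to 9.94, covering counting error only), beside 1.77% of all protein-coding genes. The interval is wide and holds the share of all genes, so the count does not set the members apart from the background. By family, 1 of 32 synthetase genes and 1 of 38 factor genes had such a peak. A pooled peak of any strength lay near 49 members (70.0%, exact interval 57.9 to 80.4), beside 47.8% of all protein-coding genes. The share was 30 of 38 among factor genes (78.9%) and 19 of 32 among synthetase genes (59.4%). The strongest pooled peaks of the 49 members had a median signal of 39.7 and a median rank of 9900. Over the 9556 protein-coding genes with a pooled peak these medians were 37.6 and 11966. Most members with a peak thus had a weak one, far below the 82.9 of the thresholded list.

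**Figure D1:**
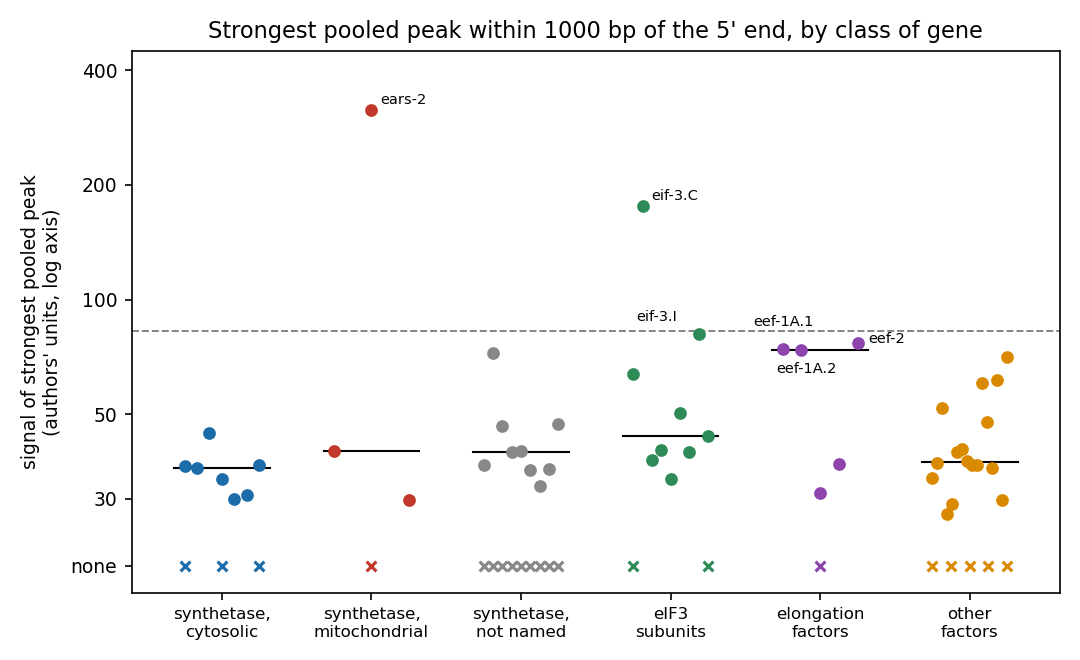
Pooled signal (authors' units, log axis) of the strongest peak near the 5′ end, 1000 bp or less away, for each of the 70 genes, by class; black lines are medians of genes with a peak, crosses are genes with none, and the dashed line is the lowest signal of the thresholded list, 82.9. Only ears-2 (314) and eif-3.C (176) lie above that line, and eif-3.I (81.3) lies just under it.

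The peak of ears-2 was the strongest of any member. The gene encodes what RefSeq describes as a nondiscriminating glutamyl-tRNA synthetase of mitochondria, an enzyme type that charges tRNAs for both glutamate and glutamine. It lies on the minus strand of chromosome IV (388686 to 390468). Signal was 314 in the pooled list, 166 in replicate 1 and 151 in replicate 2. These signals ranked 16, 24 and 15 in their lists, so both replicates placed the gene near the top. The summits lay 26, 24 and 39 bp upstream of the 5′ end (positions -26, -24 and -39), in intergenic sequence. The 5′ end of the divergent gene uncp-18 was 66 bp from the pooled summit and 92 bp from that of ears-2, so the peak stood between both genes and position alone does not assign it to either. The peak was listed as 181 bp wide. The strongest pooled peak of each of the 48 other members with one was listed as 380 bp, whatever its rank. These widths are therefore not read as the extent of binding. The nearest tRNA, snoRNA, snRNA or rRNA gene was 16891 bp away. The 101 bases centred on the summit, in RefSeq sequence of WBcel235 and in the direction of ears-2, are shown because this is the strongest site of the set. Capitals mark TTGCG on either strand.
ears-2, chrIV:390444-390544, minus strand: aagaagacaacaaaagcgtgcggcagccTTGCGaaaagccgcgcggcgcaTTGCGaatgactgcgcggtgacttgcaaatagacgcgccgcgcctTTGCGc
The window had a G and C content of 60.4% and held TTGCG at 3 places and CGCG at 5. None of its bases was soft-masked as a repeat.

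The peak of eif-3.C was the other thresholded one. The gene encodes a core subunit of eIF3, the complex that helps load the small ribosomal subunit onto mRNA, and lies on the minus strand of chromosome I (9976426 to 9979662). Signal was 176 in the pooled list, 99.7 in replicate 1 and 73.0 in replicate 2. The ranks were 100, 106 and 110, nearly equal in the replicates. Summits were at positions -235, -219 and -261 from the 5′ end, and the next 5′ end of a protein-coding gene was 3582 bp from the pooled summit. No other gene therefore competed for this peak by position. The nearest small non-coding RNA gene was 13660 bp away, and the 101-base window held TTGCG at 2 places and CGCG at 3, with 55.4% G and C.

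**Figure D2:**
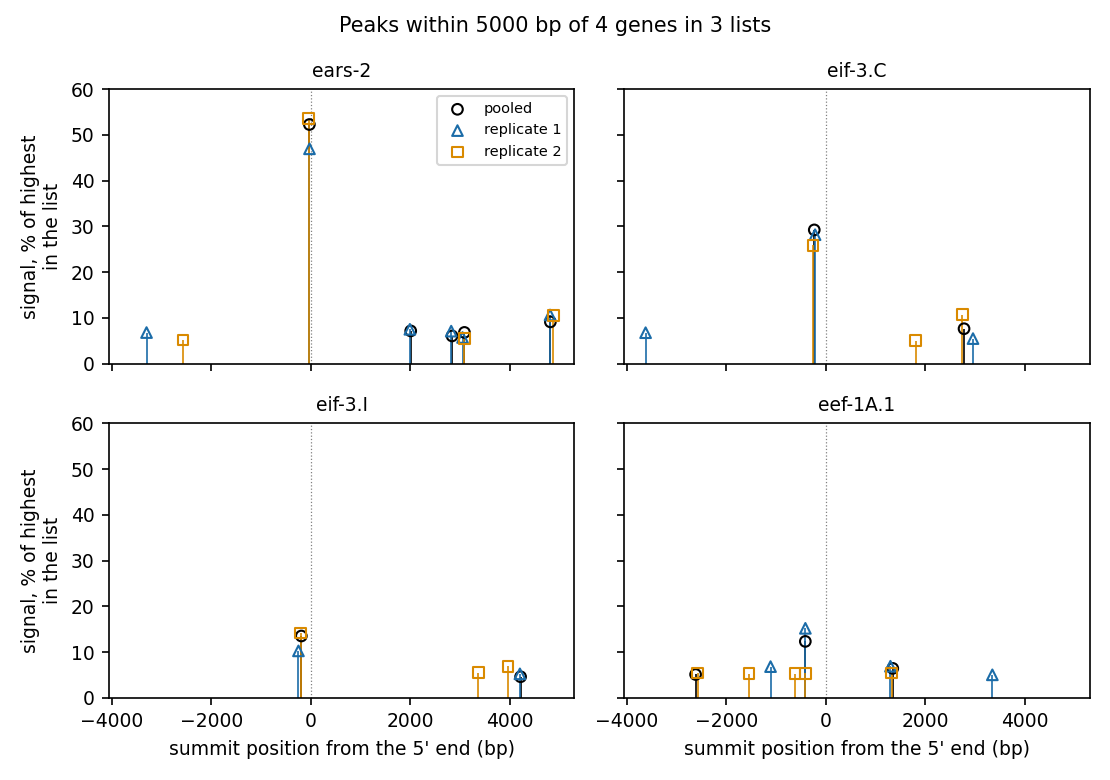
Peaks within 5000 bp of the 5′ ends of ears-2, eif-3.C, eif-3.I and eef-1A.1 in the pooled and both replicate lists; height is the peak's signal as a percent of the highest signal in its list, and negative positions are upstream. At ears-2 (46.9 to 53.5%) and eif-3.C (25.8 to 29.2%) the 3 lists show a peak of like height at 1 place, while at eef-1A.1 replicate 1 reaches 15.2% and replicate 2 only 5.38%.

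Replicates were next compared at the limit of their 469 strongest peaks, called top peaks from here on. A top peak lay near 3 of 70 members (4.29%) in replicate 1, beside 1.64% of all protein-coding genes. Replicate 2 likewise had a top peak near 3 members (4.29%), beside 1.66% of all. Only ears-2 and eif-3.C had one in both, 2.86% of members beside 1.13% of all genes. The other top peak of replicate 1 was at eef-1A.1, and that of replicate 2 at eif-3.I. The gene eef-1A.1 encodes elongation factor 1-alpha, the GTPase that delivers charged tRNAs to the ribosome. Its signal was 53.8 in replicate 1 (rank 390) and 15.2 in replicate 2 (rank 20777), with summits at positions -414 and -415. The place was the same to within 1 bp and the strength was not, and the pooled signal of 74.1 (rank 657) stayed below the thresholded list. This summit was also nearer to the divergent gene rfc-4, 126 bp from its 5′ end.

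The gene eif-3.I encodes another eIF3 subunit and came closest to the thresholded list from outside. Its pooled signal was 81.3 (rank 488), against 82.9 at rank 469. Signals were 36.3 in replicate 1 (rank 1893) and 40.0 in replicate 2 (rank 458). Summits lay at positions -246 and -200, so the replicates shared the site but not its standing. Of the bases within 50 bp of the pooled summit, 53.5% were soft-masked in the RefSeq sequence.

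**Figure D3:**
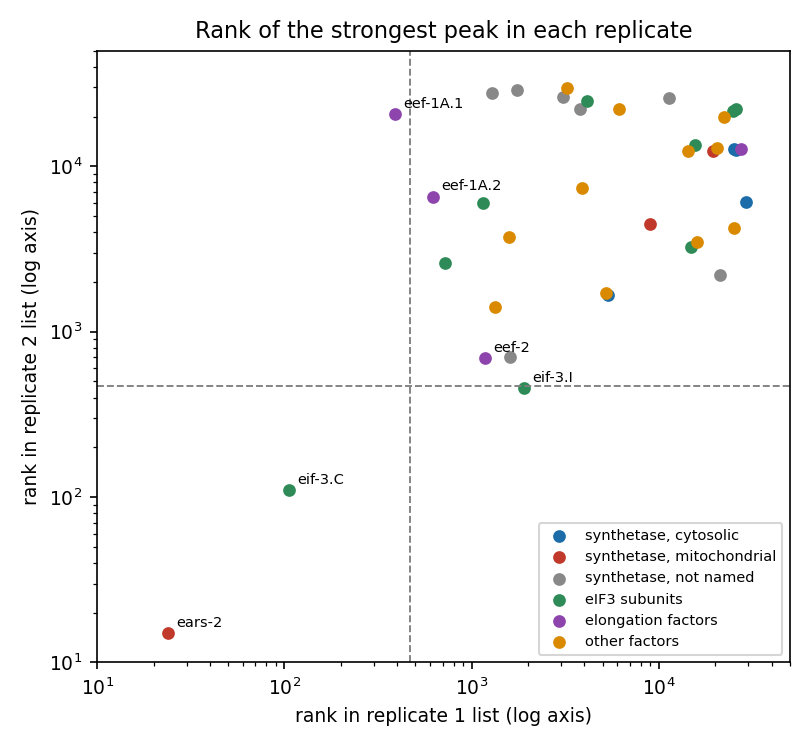
Rank of the strongest peak within 1000 bp of the 5′ end in the replicate 1 list (x) and the replicate 2 list (y), log axes, for the 38 genes with a peak in both; dashed lines mark rank 469. The genes ears-2 and eif-3.C lie inside both lines, and the other 36 genes scatter, with eef-1A.1 at rank 390 in replicate 1 and 20777 in replicate 2.

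The replicate lists were then compared over the whole set. Of the 70 members, 38 had a peak in both replicate lists, 9 in replicate 1 only, 7 in replicate 2 only and 16 in neither. Across the 38 genes Spearman's rho of the ranks was 0.26, and it was 0.13 over 36 genes without ears-2 and eif-3.C. Over the 14 genes whose replicate summits lay within 100 bp of each other, ears-2 and eif-3.C included, it was 0.58. Over the 6321 protein-coding genes with a peak in both lists, at any distance between summits, rho was 0.33. These values describe genes within 2 libraries that share their annotation, and are given without a test. The strongest summits of both replicates lay within 100 bp of each other at 14 of the 38 members (36.8%), beside 40.4% over all such protein-coding genes. Of the 15 members with the highest pooled signal 11 had summits that close, and of the 23 others with both peaks 3 did. The 15 were chosen by a pooled signal to which both replicates contribute, and a site they share stands higher in it. These 2 shares are therefore not independent of that choice.

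Among the other elongation factor genes, eef-2, for the GTPase that moves the ribosome by 1 codon, had a pooled signal of 77.1 (rank 565, position -41). Its signals were 39.9 in replicate 1 (rank 1184) and 35.8 in replicate 2 (rank 691). The gene eef-1A.2, a second gene for elongation factor 1-alpha, had 73.7 (rank 674, position -230), from 46.6 in replicate 1 (rank 620) and 21.6 in replicate 2 (rank 6557). Like eef-1A.1 it stood higher in replicate 1, while eef-2 was placed more evenly. The summit at eef-1A.2 also lay within the annotated non-coding RNA gene R03G5.8. Of the remaining elongation factor genes, eef-1G (37.1) and eef-1B.1 (31.0) had weak pooled peaks and eef-1B.2 had none in any list. The genes for elongation factors 1-alpha and 2 thus held the pooled ranks 565, 657 and 674. In all, 8 of 70 members had a pooled peak of rank under 1000 (11.4%, exact interval 5.07 to 21.3), beside 3.15% of all protein-coding genes, and this limit was chosen after the values were seen.

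The eIF3 genes differed among themselves. Of the 11 in the set 9 had a pooled peak, beside 47.8% of all protein-coding genes. A peak lay near 9 of the 11 in replicate 1, beside 48.1% of all, and near 10 in replicate 2, beside 48.9% of all. After eif-3.C and eif-3.I came eif-3.B, for a scaffold subunit, with a pooled signal of 63.8 (rank 1175, position -196). Its replicates gave 44.6 (rank 723) and 26.5 (rank 2614). The gene eif-3.G, for an RNA-binding subunit, followed with a pooled signal of 50.3 (rank 3612, position -295). Replicate 1 gave 40.2 (rank 1150) at position -311. The strongest peak of replicate 2 (22.1, rank 6004) lay elsewhere, at position -908. The other 5 with a pooled peak had 33.8 to 43.9. No pooled peak was found at eif-3.K or eif-3.L. Genes for subunits of 1 complex therefore ranged from rank 100 to no peak in the pooled list.

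Cap-binding proteins of the eIF4E type are encoded by the ife genes, and 4 of 5 had a pooled peak, beside 47.8% of all protein-coding genes. The strongest were ife-5 with a signal of 61.3 (rank 1407) and ife-2 with 60.4 (rank 1509). The summit of ife-2 lay at position 8, with replicate signals of 29.4 (rank 5239) and 29.0 (rank 1712) at position 1 in both. That of ife-5 lay at position -620, in an exon of the neighbouring gene Y57A10A.29, whose 5′ end was nearer. Its replicate signals were 37.6 (rank 1584) and 24.5 (rank 3724). Peaks at ife-3 (47.8, rank 4635, position 842) and ife-4 (36.1, rank 13678) were weaker. The summit at ife-3 lay in an exon of the gene, with replicate signals of 31.5 (rank 3882) and 21.0 (rank 7349) whose summits were on opposite sides of the 5′ end. At ife-1 replicate 1 alone had a peak (rank 21646).

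Both genes for eIF5A, a factor that eases elongation past stalling sites, had a pooled peak, beside 47.8% of all protein-coding genes. That of iff-2 had a signal of 70.8 (rank 771, position -38), with 39.0 in replicate 1 (rank 1332) and 30.3 in replicate 2 (rank 1401). The ranks were alike in the replicates and the summits lay 26 bp apart. At iff-1, which has its peak 95 bp from the 5′ end of the divergent cell cycle kinase gene cdk-1, the pooled signal was 29.8 (rank 23290).

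Genes for eIF2, which carries the initiator tRNA, and for its exchange factor eIF2B had weak peaks in the pooled list, where the strongest, at eif-2Bgamma, ranked 9250. Of the 5 genes for eIF2 subunits, eIF2A and eIF2D, 2 had a pooled peak, eif-2A with 52.0 (rank 3079, position 281, in an exon) and eif-2beta with 37.8. The replicates at eif-2A gave 28.4 (rank 6103) and 14.8 (rank 22084). No list had a peak at eif-2alpha or eif-2gamma. Of the 5 eIF2B genes 4 had a pooled peak, with signals of 27.3 to 40.4. Over all protein-coding genes the share with a pooled peak was 47.8%. The peak of eif-2Bgamma (40.4, position -831, with rank 2990 in replicate 1 and no peak in replicate 2) was the only one of the 49 less than 200 bp from a gene for a small RNA, lying inside sup-39, which Ensembl annotates as a snRNA gene. The genes eif-1, eif-1.A, eif-4A3 and eif-6, for start site selection, an exon junction helicase and a subunit joining factor, had pooled signals of 34.1 to 37.2.

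The synthetase genes were divided by compartment from the wording of their RefSeq products. The wording named the cytoplasm for 10, mitochondria for 4 and neither for 18. No cytosolic gene had a thresholded peak (0 of 10, exact interval up to 30.8%), and 1 of 4 mitochondrial genes did (25.0%, exact interval 0.631 to 80.6), which was ears-2. These intervals overlap and the difference rests on 1 gene, so the counts do not separate the compartments. Over all protein-coding genes the share with a thresholded peak was 1.77%. A pooled peak was found at 7 of 10 cytosolic and 3 of 4 mitochondrial genes, beside 47.8% of all protein-coding genes. Signals of the 7 cytosolic genes ran from 30.1 at sars-1 to 44.7 at mars-1, with a median of 36.2 and ranks of 6162 to 22889. The mitochondrial genes other than ears-2 had 39.9 at aars-1 (rank 9744), 29.7 at pars-2 (rank 23446) and no peak at rars-2. Among genes with a compartment named in RefSeq, the mitochondrial signals apart from ears-2 were thus as weak as the cytosolic ones. Assigning further genes by general knowledge, a choice made after the data were seen, gave 16 cytosolic and 10 mitochondrial genes with 0 and 1 thresholded peaks, and 10 and 5 pooled peaks. The cytosolic genes then included fars-3, and their highest pooled signal rose to 72.5 (rank 717).

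Genes for the same amino acid came in 10 pairs. A pooled peak lay near both genes of 2 pairs, near 1 gene of 5 pairs and near neither gene of 3. For glutamate, the partner ears-1 had no peak in any list. For alanine the mitochondrial aars-1 had a pooled peak and the cytosolic aars-2 had none. For arginine neither rars-1 nor rars-2 had a peak in any list, and for proline the partner pars-1 had a peak in replicate 2 alone (signal 16.2, rank 17398). For asparagine the cytosolic nars-1 had a pooled signal of 33.8, and nars-2, whose product names no compartment, had no peak in any list. Genes for both isoleucyl enzymes had weak pooled peaks, 36.2 at iars-1 and 39.8 at iars-2, as did those for both seryl enzymes, 30.1 at sars-1 and 32.3 at sars-2. At the iars-2 gene the 1000 bp limit left out a stronger pooled peak of signal 60.9 (rank 1457), 1036 bp from the 5′ end. Just inside the limit the nearest was that of mars-1 (44.7), at 987 bp.

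The strongest synthetase gene after ears-2 was fars-3, for the beta subunit of phenylalanyl-tRNA synthetase. Its pooled signal was 72.5 (rank 717, position -61), with 37.5 in replicate 1 (rank 1600) and 35.6 in replicate 2 (rank 700). Both replicates placed the summit within 53 bp upstream of the 5′ end. The alpha subunit gene fars-1 had 36.7 (rank 12915, position 649), so the 2 subunits of 1 enzyme differed in rank and in place. The gene fars-2 had no pooled peak and a peak in replicate 2 alone (rank 29565). For tyrosine, yars-2 had 47.2 (rank 4903) in an exon at position 452, from 36.8 in replicate 1 (rank 1747) and 13.1 in replicate 2 (rank 28850), where the summit was elsewhere, at position -26. Its counterpart yars-1 had no peak in any list. In all, 10 of the 32 synthetase genes (31.3%) had no peak in any list, dars-1, dars-2, hars-1 and lars-2 among them, beside 33.0% of all protein-coding genes. The count was 5 of the 38 factor genes (13.2%, exact interval 4.41 to 28.1).

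**Figure D4:**
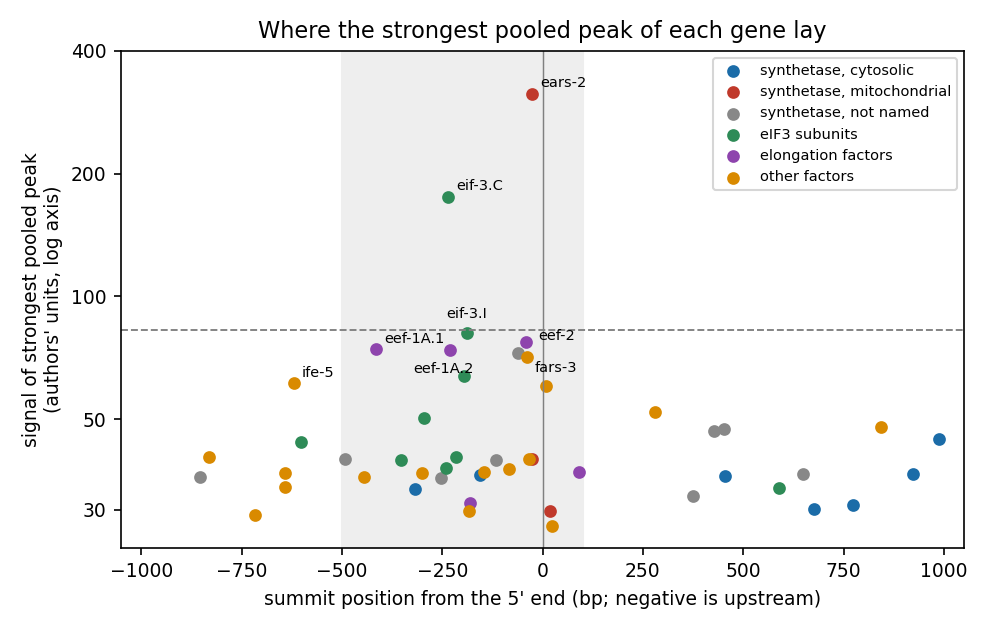
Position of the strongest pooled summit from the 5′ end (x, bp, negative upstream) and its signal (y, authors' units, log axis) for the 49 genes with a pooled peak; the grey band spans 500 bp upstream to 100 bp downstream and the dashed line is the lowest thresholded signal. The 8 strongest genes all lie in the band, and cytosolic synthetase genes lie mostly to its right.

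Most of the members' peaks lay close to the 5′ end. The strongest pooled summit was between 500 bp upstream and 100 bp downstream of the 5′ end at 30 of 49 members (61.2%), beside 3608 of the 9556 protein-coding genes with a pooled peak (37.8%). The share was 21 of 30 among factor genes (70.0%), all 5 elongation factor genes with a pooled peak included, and 9 of 19 among synthetase genes (47.4%). Among cytosolic synthetase genes 2 of 7 summits lay there and the median position was 675, within the gene. At 10 of the 49 members another protein-coding gene had the nearer 5′ end, as with rfc-4 at eef-1A.1, so for these the position does not single out the member. Nor does it where a divergent gene was close, as with uncp-18 at ears-2. The 5′ end of the divergent gene abtm-1 was 282 bp from the eif-3.I summit. That of the divergent gene clsp-1 was 224 bp from the eef-2 summit. Soft-masked bases lay within 50 bp of the summit at 32 of the 49.

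Sequences at 6 further sites are set side by side so that they can be compared with that of ears-2. Each is 101 bases centred on the pooled summit, in the direction of the gene, from RefSeq WBcel235, with TTGCG or its reverse complement CGCAA in capitals.
eef-1A.1, chrIII:6972077-6972177, minus strand: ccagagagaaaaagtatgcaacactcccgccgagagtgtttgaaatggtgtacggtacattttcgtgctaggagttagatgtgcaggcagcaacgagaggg
eef-1A.2, chrX:7823374-7823474, plus strand: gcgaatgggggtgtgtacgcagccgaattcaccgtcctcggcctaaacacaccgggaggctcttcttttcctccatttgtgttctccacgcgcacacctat
fars-3, chrII:8464737-8464837, plus strand: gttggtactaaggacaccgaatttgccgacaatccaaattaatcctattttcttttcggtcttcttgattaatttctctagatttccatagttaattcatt
iff-2, chrII:8561355-8561455, minus strand: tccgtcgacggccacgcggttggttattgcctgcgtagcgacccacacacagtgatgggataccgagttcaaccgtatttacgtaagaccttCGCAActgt
eif-3.B, chrII:14795158-14795258, plus strand: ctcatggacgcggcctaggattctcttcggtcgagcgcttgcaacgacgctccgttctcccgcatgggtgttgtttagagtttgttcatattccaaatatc
eif-3.G, chrII:8442422-8442522, plus strand: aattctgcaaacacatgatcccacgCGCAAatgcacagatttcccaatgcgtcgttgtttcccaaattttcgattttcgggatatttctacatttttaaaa
The G and C content ran from 32.7% at fars-3 to 56.4% at eef-1A.2, so ears-2, with 60.4%, was the richest of them. TTGCG stood at 1 place in iff-2 and eif-3.G and at none in the other 4. Among strong sites not printed, the window of eif-3.I held it at 3 places, as ears-2 does, and that of eef-2 at none.

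The motif TTGCG was chosen after the ears-2 sequence was seen, and both strands were searched. It was found in 7 of the 15 windows at the members with the highest pooled signal (46.7%), and in 11 of all 49 (22.4%). Both counts include the ears-2 window, where the match was known beforehand. Over the 28882 pooled summits the share was 13.6%, and over the 251 thresholded summits farther than 200 bp from any gene for a small RNA it was 39.0%. CGCG, which can overlap TTGCG, stood in 7 of the 15 windows too, beside 15.2% of pooled windows and 48.6% of those 251. In the 300 bases from 250 bp upstream of the 5′ end, TTGCG was found in 25 of 70 members (35.7%) and 30.4% of all protein-coding genes, and CGCG in 39 of 70 (55.7%) and 27.9%. The mean G and C content of the 15 windows was 48.4% ± 7.74 (SD, 15 windows), against 40.9% ± 8.76 (SD, 28882 windows) at pooled summits. In the 300-base windows the mean was 34.0% at members and 34.8% over all protein-coding genes. Matches of short GC-rich motifs move with G and C content, and its part in the shares was not tested. At the thresholded peaks as a whole, hexamers found in tRNA genes were frequent. On either strand CGAACC stood in 19.2% of those windows, and the hexamer GTTCGA stood in 21.5%. The share was 19.4% for ACCACT, while GAACCC was found in 16.2% and the overlapping AACCAC in 14.7%. Neither these hexamers nor GTTCGANNC, the core of the B box inside tRNA genes, stood in any of the 15 windows. At the 251 thresholded summits away from small RNA genes their shares were 1.20 to 7.17%, and at all pooled summits 1.34 to 4.30%, so 0 of 15 was near those shares.

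Other genes of translation were taken from a list of 46 symbols, of which 36 matched the annotation. This list was chosen with earlier results of these data known, so its share is not that of an independent set. A thresholded peak lay near 4 of the 36 (11.1%, exact interval 3.11 to 26.1, beside 1.77% of all protein-coding genes), and a pooled peak near 25 (69.4%, beside 47.8%). With summits limited to 500 bp from the 5′ end the 4 became 1 of 36, erfa-3, beside 1.20% of all protein-coding genes. The 4 included ifet-1, for a partner of eIF4E, with a signal of 131 (rank 186), and erfa-3, for a release factor GTPase, with 118.8 (rank 226). The others were the ABC family gene abcf-2 with 104 (rank 283) and the RNA-binding protein gene larp-1 with 91.1 (rank 384). Their summits lay 510, 326, 869 and 727 bp upstream, in that order, and only erfa-3 had no other gene with a nearer 5′ end. The nearer genes were rps-1 at 258 bp for ifet-1, ant-1.1 at 56 bp for abcf-2 and wip-1 at 262 bp for larp-1. In the replicates erfa-3 ranked 280 and 238 and ifet-1 ranked 284 and 178, while abcf-2 ranked 249 and 638 and larp-1 543 and 373. The mitochondrial elongation factor genes tufm-1 (43.4) and gfm-1 (53.9) had weaker pooled peaks, and tsfm-1 had none.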

How the data were processed

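Anti-GFP ChIP-seq peak lists of 2 biological replicates were analysed. Per the file listings, the authors called relaxed peaks with background on each replicate and on both pooled, each against a control, and deposited a list thresholded by reproducibility (IDR). The deposited signal value of each peak comes from the authors' caller. The aligner, the caller and their versions were not given in the sources used here. Without read numbers, the precision set by depth is unknown. Lists in the ce10 build were not used, because the annotation is of ce11.

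Peaks were ranked by signal within each list and assigned to Ensembl release 115 gene 5′ ends within 1000 bp. Products and sequence came from RefSeq WBcel235, positions are counted from 1, and small non-coding RNA genes are tRNA, snRNA, snoRNA and rRNA genes. Summits between 500 bp upstream and 100 bp downstream of a 5′ end were called promoter summits. The members, lists and motifs were chosen with earlier results of these data known. Full values are given for members with a thresholded peak, the 15 members of highest pooled signal and their counterparts, and other members are given by range. No differential test was made. Computation used Python 3.11.15, numpy 2.4.6, SciPy 1.17.1 and matplotlib 3.10.9. On simulated data, 200 of 200 peaks planted near 5′ ends were recovered among 19985 genes. Alternatives changed the distance, the list, the replicate, the 5′ end and the compartment rule.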

Additional observations from a re-analysis of the deposited data

How the results depend on the processing

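The members with a thresholded peak were ears-2 and eif-3.C at 500 bp, with any transcript's 5′ end, with the nearest 5′ end only, without peaks at small RNA genes, with any overlap, and in the upper 234 peaks. At 2000 bp there were 4, since eif-6 (position -1963, signal 130) and fars-1 (position 1807, signal 125, 54 bp from the snoRNA gene T08B2.13) were added, and factor genes then numbered 2. The share of members was 5.71% beside 2.59% of all genes at 2000 bp, and 2.86% beside 1.20% at 500 bp. On the top peaks of 1 replicate alone, the counts were 3 to 3 members and 2 to 2 factor genes, with eif-3.I added in replicate 2 and eef-1A.1 in replicate 1. The cytosolic count stayed at 0 and the mitochondrial count at 1 in all alternatives run. Members with a peak of any strength numbered 47 of 70 in replicate 1 (67.1%), beside 48.1% of all genes. In replicate 2 they numbered 45 of 70 (64.3%), beside 48.9% of all. With summits 500 bp upstream to 100 bp downstream, 32 members had a pooled peak, beside 21.2% of all genes. This last limit and the wider compartment rule were chosen after seeing the data. Other translation genes with a thresholded peak numbered 1 of 36 at 500 bp (erfa-3), beside 1.20% of all genes. With top peaks taken as 938 or 234 peaks, ears-2 and eif-3.C were again the members with one in both replicates. No paired analysis was possible because there was 1 group. Depth being unknown, a missing peak does not show a lack of binding.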
